A study of Rattus norvegicus with 6 samples.

Results

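Thrombospondins, tenascins, SPARC and periostin are matricellular proteins, which are secreted into the extracellular matrix but signal to cells rather than carry load. The comparison covered 10 genes chosen by name, namely the thrombospondin genes Thbs1, Thbs2, Thbs3, Thbs4 and Comp, the tenascin genes Tnc and Tnxb, the SPARC family genes Sparc and Sparcl1, and the periostin gene Postn. The count table of 14475 genes held 9 of them, and Tnxb was not analysed here. Counts came from vascular smooth muscle (VSM) cells cultured from the soleus feed artery (SFA), which supplies the soleus muscle, of male Fischer 344 rats. Polyadenylated RNA of 3 young (4 months) and 3 old (24 months) rats was sequenced, and nothing in the labels says that the cells were treated. Cells were grown in serum-containing medium before RNA extraction, so the levels describe cultured cells and not the vessel wall. The comparison asked how the RNA of these genes differed between old and young VSM cells. The p-values set the difference between the ages against the spread between 3 cultures of each age.

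In a healthy artery some matricellular genes are expressed at low levels, and several are known to be induced by injury, stretch, transforming growth factor β (TGF-β) and cell culture itself. Thrombospondin-1 activates latent TGF-β and binds the receptors CD47 and CD36. Tenascin-C interferes with the adhesion of cells to fibronectin and is a ligand of integrins α8β1, α9β1 and αvβ3. SPARC binds collagen and takes part in its assembly, and periostin binds collagen and fibronectin and promotes collagen cross-linking.

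Total counts on genes ranged from 44235674 to 59700887 per library. Levels are given as CPM, counts scaled to a library size normalized with the TMM method. CPM are not corrected for transcript length, so they are compared between libraries and not between genes. The ages were compared by the quasi-likelihood test of edgeR over all genes. A call needed a Benjamini-Hochberg adjusted p under 0.05 together with a log2 fold change of 1 or more in size. Smooth muscle markers were present in each library, with 8 of 8 listed genes in the table. Their summed level was 11207 to 20995 CPM in young and 3448 to 5562 CPM in old libraries. Acta2, which encodes smooth muscle α-actin, averaged 7646 ± 2705 CPM in young libraries against 1583 ± 556 CPM in old libraries (SD, n = 3 each). Of 9 fibroblast markers 8 were in the table, and their sum was 192 to 500.3 CPM in young and 579.7 to 1469.7 CPM in old. The endothelial markers Cdh5, Tie1 and Cldn5 and the macrophage markers Ptprc, Adgre1 and Itgam had no row, and summed levels of the markers that had a row were at most 43.7 CPM for endothelial and 16.8 CPM for macrophage markers. Of 7 tendon cell markers 6 were in the table, with a sum of 86.5 to 146 CPM in young and 84.2 to 217 CPM in old. The highest sum of each age was mostly Egr1, at 131 CPM in young replicate 3 and 154 CPM in old replicate 1. Skeletal muscle markers summed to 103 to 202 CPM in young and 21.0 to 60.9 CPM in old, with 4 of 11 in the table. The lower sum came from Myh1 and Myh2. Tnnt3 went the other way, at 12.8, 11.5 and 7.78 CPM in young and 10.6, 28.4 and 21.8 CPM in old. Des was at most 2.99 CPM, and Myog, Myod1, Pax7 and Ckm were among those without a row. Summed Schwann cell markers (3 of 6 in the table) were at 13.5 to 75.5 CPM in young and 54.9 to 86.4 CPM in old. Pericyte markers (4 of 6) were at 904 to 1373 CPM in young and 667 to 1520.4 CPM in old. Pdgfrb was the largest part of the pericyte sum in each library and the 1 gene higher in old. The other 3 were lower, and the list median was -0.77 on the log2 scale. Among them, Cspg4 had 273, 246 and 440 CPM in young and 163, 102 and 97.8 CPM in old. In RNA from whole cultures, fewer cells of a type and less RNA per cell cannot be told apart.

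Tnc was lower and Thbs4 higher in old VSM cells, whereas Thbs1 and Sparc, which took large shares of the reads in each library, had log2 fold changes of -0.12 and 0.37 and were not called by any tool. edgeR called 0 of the 9 genes, against 0.00691% of all genes, and 3 of the 9 (Tnc, Thbs4 and Thbs3) had an unadjusted p under 0.05, against 22.6% of all genes. The DESeq2 Wald test on the same counts called 2 of the 9, against 5.68% of all genes with an adjusted p. It called Tnc as lower, as it did 3.38% of all genes, and Thbs4 as higher, as it did 2.30%. With each library left out in turn, DESeq2 kept its call of Tnc. Its call of Thbs4 was lost without young replicate 2, young replicate 3 or old replicate 2. limma-voom called 0 of the 9 and 0% of all genes, with 23.1% of all genes at an unadjusted p under 0.05. Libraries of the age groups did not overlap for Tnc, Thbs3 and Thbs4, against 29.2% of all genes. With 3 libraries an age, the smallest two-sided p of an exact permutation test is 0.1.

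**Figure D1:**
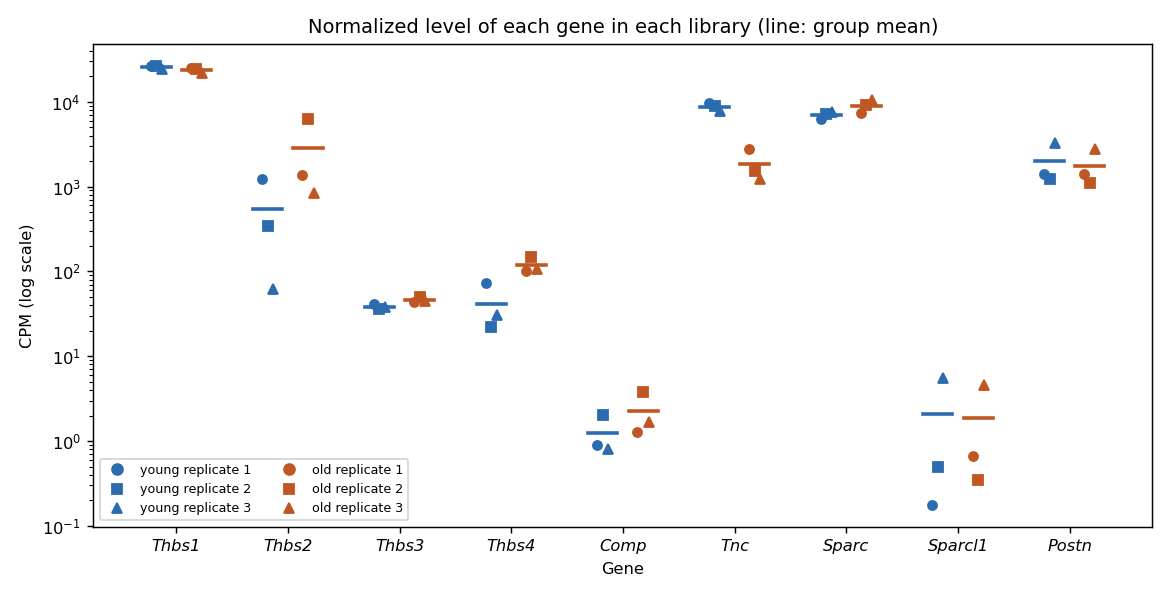
CPM of the 9 genes in each library on a log axis, with young libraries in blue, old libraries in orange, a symbol shape for each replicate number and a line at the group mean. Old libraries lie below the young libraries for Tnc and above them for Thbs3 and Thbs4, and replicate 3 is the highest of its group for Postn and Sparcl1.

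The stretches before the transcription start of Tnc and Thbs4, the genes that DESeq2 called, and of Thbs1, which took the largest share of reads of the 9 genes, are shown as the regulatory sequence closest to these results. They come from RefSeq for the rat assembly GRCr8, which had an entry for 8 of the 10 genes, and run 5′ to 3′ toward the start. Thbs4 lies on the minus strand, at chr2:25760346-25760595, and Thbs1 on the plus strand, at chr3:125510000-125510249, and both show the 250 bases before the start. For Tnc on the minus strand, at chr5:82476198-82476381, bases 250 to 67 before the start are shown, since the annotated gene covers the rest. Capitals mark matches, on either strand, to the motifs searched. These were the TATA box as TATAA, the Sp1 motif as GGGCGG, the AP-1 motif as TGANTCA, the TEAD motif as GGAATG, the Smad motif as CAGAC, the E-box as CANNTG, the CCAAT box and, by name, the CArG box of serum response factor.
Tnc: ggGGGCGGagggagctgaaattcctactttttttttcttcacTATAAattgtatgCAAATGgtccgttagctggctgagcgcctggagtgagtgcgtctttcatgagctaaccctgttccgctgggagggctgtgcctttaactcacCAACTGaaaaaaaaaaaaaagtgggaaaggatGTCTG
Thbs4: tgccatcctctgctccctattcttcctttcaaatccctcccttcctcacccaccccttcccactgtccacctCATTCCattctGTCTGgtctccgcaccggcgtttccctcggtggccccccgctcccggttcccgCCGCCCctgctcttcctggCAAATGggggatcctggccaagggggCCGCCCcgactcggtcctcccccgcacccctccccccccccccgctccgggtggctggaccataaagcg
Thbs1: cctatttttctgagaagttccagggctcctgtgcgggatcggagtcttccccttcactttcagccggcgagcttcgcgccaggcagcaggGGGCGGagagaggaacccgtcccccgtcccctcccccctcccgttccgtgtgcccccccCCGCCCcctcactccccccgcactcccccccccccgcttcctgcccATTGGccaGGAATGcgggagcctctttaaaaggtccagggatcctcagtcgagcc
Within 250 bases before the start, Tnc held TATAA at bases 208 to 204 and again at bases 28 to 24, the second outside the printed stretch. TATAA occurred in 24.0% of 33469 rat promoters of the same length. GGAATG, the core of the TEAD motif, lay at bases 47 to 42 in Thbs1 and, on the opposite strand, at bases 178 to 173 in Thbs4, against 12.1% of all promoters. CAGAC was found in Tnc and Thbs4 and in 42.9% of all promoters, GGGCGG in each of the 3 genes and in 30.5%, CANNTG in Tnc and Thbs4 and in 65.5%, and CCAAT in Thbs1 and in 34.0%. No match to TGANTCA or to the CArG box lay in these 3 windows, and 6.34% and 1.50% of all promoters held them. No matches overlapped in these windows, and a match is only a run of letters.

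Tnc (ENSRNOG00000058645), which encodes tenascin-C, had 9580.4, 8824 and 7719.7 CPM in the young libraries and 2801, 1521 and 1222 CPM in the old libraries. Each old library was below each young library, and the highest old value was that of old replicate 1. The mean was 8708 ± 936 CPM in young libraries and 1848 ± 839 CPM in old (SD, n = 3 each). On the log2 scale old minus young was -2.24 (standard error 0.35, 95% interval -3.09 to -1.39), which is a level 4.71 times higher in young. Its adjusted p was 0.0574 from edgeR's quasi-likelihood test, 0.0550 from limma-voom and 1.74e-09 from DESeq2. Without old replicate 1 edgeR called Tnc at -2.67 (adjusted p = 0.0262), as it then did 5.06% of all genes. With an adjusted p under 0.1 as the limit, edgeR called Tnc and 2.63% of all genes. With any other library left out, the edgeR adjusted p was at least 0.105, while DESeq2 called Tnc with each of the 6 libraries left out in turn. Tnc took 0.739% to 0.978% of the counts of a young library and 0.121% to 0.277% of an old library. Summed smooth muscle markers were lower and summed fibroblast markers higher in the old libraries, and their part in the level of Tnc was not tested.

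Tnn, another tenascin gene, which encodes tenascin-N and was chosen here after its values were seen, differed in the opposite direction. It had 37.3, 9.76 and 22.2 CPM in the young libraries and 120.4, 257 and 36.3 CPM in the old libraries. Old replicate 3 was just below young replicate 1, so the groups overlapped. For Tnn old minus young was 2.58 on the log2 scale (standard error 0.79), with an adjusted p of 0.145 from edgeR and 0.00317 from DESeq2. DESeq2 no longer called Tnn without young replicate 3 (adjusted p = 0.134), old replicate 1 (adjusted p = 0.0587) or old replicate 2 (adjusted p = 0.0935), and without old replicate 2 the edgeR value was 1.77. Within a library the ratio of Tnc to Tnn CPM was 257, 904 and 348 in young and 23.3, 5.92 and 33.7 in old. Since Tnn was picked for its direction and Tnc already separated the ages, these ratios are a description and were not tested.

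Among the thrombospondins, Thbs1 (ENSRNOG00000045829) had 26434, 26199 and 24333 CPM in the young libraries and 25160.5, 24008 and 21789 CPM in the old libraries. The groups overlapped, and the lowest and highest of the 6 libraries differed by 1.21 times. Its counts made up 2.33% to 2.70% of a young library and 2.16% to 2.49% of an old library. The log2 fold change was -0.12 with a 95% interval of -0.71 to 0.48 (adjusted p = 0.795 from edgeR). The interval holds changes of less than a doubling in either direction.

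Thbs2 (ENSRNOG00000010529), the closest relative of Thbs1 and like it an inhibitor of angiogenesis, had 1219, 344 and 61.9 CPM in young and 1377, 6268 and 837 CPM in old. Young replicate 1 lay within the range of the old libraries, and old replicate 2 was far above all others, so that the 6 libraries spanned 101 times. Its log2 fold change of 2.38 had a 95% interval of -0.49 to 5.26 (adjusted p = 0.282 from edgeR and 0.217 from DESeq2). It was 1.04 without old replicate 2 and 3.80 without young replicate 1. Cultures of the same age differed in Thbs2 by up to 19.7 times in young and 7.49 times in old. The SD of log2(CPM + 0.5) within the groups was 1.86 for Thbs2, compared with a median of 0.19 over the 12257 genes with a mean of at least 1 CPM. Of the 131 genes with a mean at or above that of Thbs2, itself included, 0 had a larger SD, whereas Thbs1 had an SD of 0.09.

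Thbs3, Thbs4 and Comp form the other subgroup of thrombospondins, which assemble into pentamers. Thbs4 (ENSRNOG00000012471), a gene of tendon and muscle matrix, had 73.1, 22.0 and 30.3 CPM in young and 99.9, 148 and 107 CPM in old. Each old library was above each young library, and young replicate 1 was nearest to the old group. Its log2 fold change was 1.50 (standard error 0.46, 95% interval 0.40 to 2.60), a level 2.83 times higher in old. The adjusted p was 0.144 from edgeR, 0.114 from limma-voom and 0.0122 from DESeq2. DESeq2 no longer called Thbs4 without young replicate 2 (adjusted p = 0.0783), young replicate 3 (adjusted p = 0.103) or old replicate 2 (adjusted p = 0.113). Without young replicate 1 the edgeR log2 fold change of Thbs4 was 2.17 (adjusted p = 0.0728). Summed fibroblast markers were also higher in each old library (579.7 to 1469.7 CPM) than in any young library (192 to 500.3 CPM). Pdgfra was the largest part of this sum in each library. The log2 fold change was above 0 for 8 of 8, against 52.0% of all genes. Only 3 had separate groups, against 14.5% of all genes higher in old, and DESeq2 called 2, against 2.30%. Summed tendon cell markers overlapped between the ages, and 0 of the 6 in the table had separate groups. Their part in the level of Thbs4 was not tested.

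Thbs3 (ENSRNOG00000059903) had 41.8, 35.7 and 37.8 CPM in young and 44.2, 49.4 and 44.8 CPM in old. Old libraries were above the young libraries by a small margin, with a log2 fold change of 0.26 (95% interval 0.03 to 0.50, adjusted p = 0.192 from edgeR). Comp (ENSRNOG00000048472), which encodes cartilage oligomeric matrix protein, had few reads, with 41, 123 and 40 counts in young and 64, 196 and 89 counts in old. Replicate 2 was the highest library of both groups, and the groups overlapped. The log2 fold change of Comp was 0.83 (95% interval -0.50 to 2.15, adjusted p = 0.396 from edgeR), and it was 0.22 without old replicate 2 and 1.38 without young replicate 2.

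**Figure D2:**
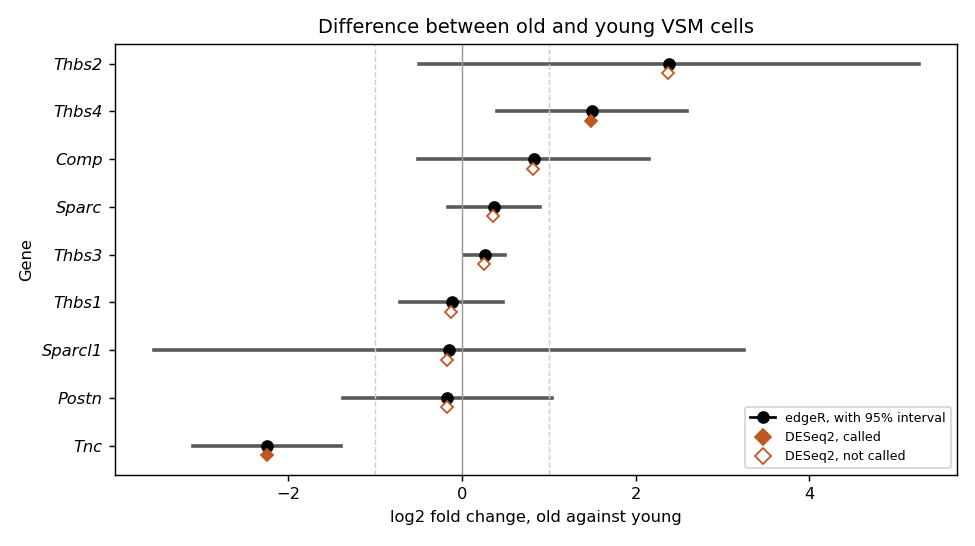
Log2 fold change of old against young VSM cells for the 9 genes, with black points and bars for the edgeR value and its 95% interval, orange diamonds for DESeq2 (filled where called) and dashed lines at the fold change threshold. Tnc at -2.24 and Thbs4 at 1.50 are the filled diamonds, and the intervals of Thbs2 and Sparcl1 are the widest.

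Sparc (ENSRNOG00000012840) had 6278, 7094 and 7546 CPM in young and 7424, 9167 and 10446 CPM in old. The groups overlapped, since old replicate 1 was just below young replicate 3. The log2 fold change was 0.37 (95% interval -0.16 to 0.90), with an adjusted p of 0.348 from edgeR and 0.166 from DESeq2. As a share of all counts, without TMM normalization, Sparc took 0.641% to 0.723% of a young library and 0.735% to 1.04% of an old library, and on that scale the groups did not overlap.

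Sparcl1 (ENSRNOG00000015093), which encodes the SPARC relative hevin, had 8, 30 and 275 counts in young and 33, 18 and 248 counts in old. Replicate 3 held most of the counts of both groups, at 5.60 CPM in young and 4.63 CPM in old, and the other libraries were at 0.18 to 0.66 CPM. Its log2 fold change of -0.15 had a 95% interval of -3.55 to 3.24 (adjusted p = 0.958 from edgeR), and DESeq2 gave no p for it.

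Postn (ENSRNOG00000012660), which encodes periostin, had 1398, 1242 and 3305 CPM in young and 1415, 1109 and 2776 CPM in old. As for Sparcl1, replicate 3 was the highest library of both groups, at 2.50 times the mean of the other young and 2.20 times the mean of the other old libraries. For Sparcl1 these ratios were 16.6 and 9.17. The labels do not say what libraries of the same replicate number share. The log2 fold change of Postn was -0.17 (95% interval -1.37 to 1.04, adjusted p = 0.861 from edgeR), and without young replicate 3 it was 0.42 (adjusted p = 0.626). Tgfbi, the paralog of Postn, was chosen after its values were seen and had 47.7, 12.4 and 7.92 CPM in young and 378, 137 and 107 CPM in old. Old minus young was 3.20 on the log2 scale (standard error 0.84), with an adjusted p of 0.117 from edgeR and 0.00812 from DESeq2. The DESeq2 call of Tgfbi was lost without young replicate 3 (adjusted p = 0.0604) or old replicate 2 (adjusted p = 0.0505). In edgeR Tgfbi was at 4.35 without young replicate 1 and at 2.43 without old replicate 1.

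**Figure D3:**
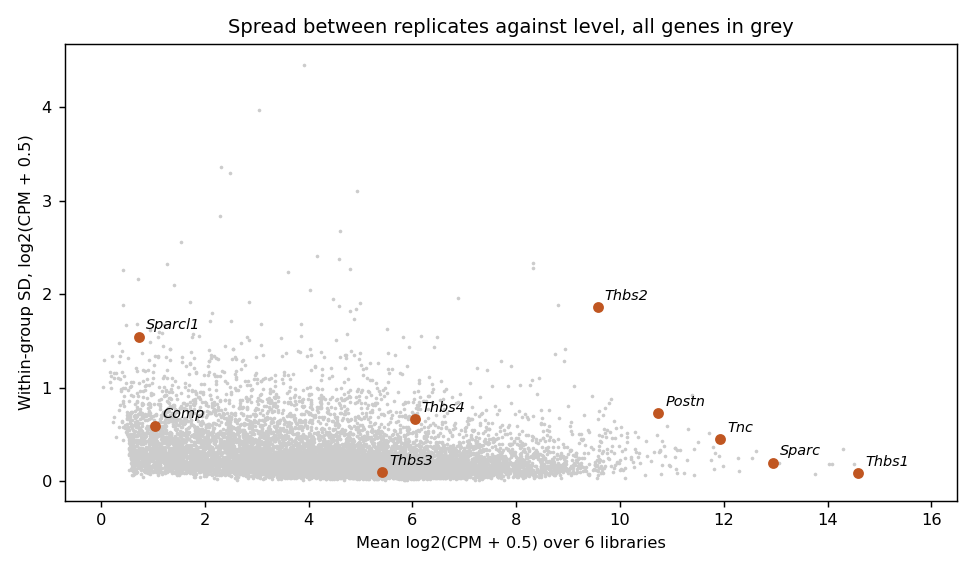
SD of log2(CPM + 0.5) within the age groups against the mean log2(CPM + 0.5) of the 6 libraries, for all genes with a mean of at least 1 CPM in grey and the 9 genes in orange. Thbs2 at an SD of 1.86 lies above all genes of its level or higher, while Thbs1 at 0.09 and Thbs3 at 0.10 lie below the median of 0.19.

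The 9 genes together took 4.12% to 4.59% of the counts of a young library and 3.69% to 4.37% of an old library. Spread between cultures of the same age differed widely among them. The SD of Thbs2, Sparcl1, Postn, Thbs4 and Comp was above that of at least 90.7% of all genes with a mean of at least 1 CPM. For Tnc this was 84.3%, for Sparc 53.4%, for Thbs3 18.0% and for Thbs1 12.8%. These ranks take no account of level. Comp, with 40 to 196 counts a library, and Sparcl1, with 8 to 275, had few reads. For them, counting noise and spread between cultures were not told apart.

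Other genes of the pathway were taken from 5 lists written from knowledge of the proteins, covering other matricellular genes, receptors, matrix partners, the TGF-β pathway and proteases. Of 84 listed genes, 78 were in the table. edgeR called 0 of the 78, limma-voom called 0, and DESeq2 called 23, against 5.68% of all genes. In edgeR 38 of the 78 had an unadjusted p under 0.05, against 22.6% of all genes. These lists were chosen with results of these libraries known, so the counts are not independent evidence of a direction. The median log2 fold change of all genes was 0.02.

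Of 15 other matricellular and related secreted genes, DESeq2 called 3 as higher (Spon1, Tgfbi and Tnn) and 3 as lower (Ccn3, Smoc1 and Ccn1), with a list median of -0.26 on the log2 scale in edgeR. Spon1, which encodes the thrombospondin-repeat protein F-spondin, averaged 0.797 ± 0.327 CPM in young libraries against 11.4 ± 7.53 CPM in old libraries (SD, n = 3 each), a log2 difference of 3.84 (adjusted p = 0.0557 from edgeR), which was 3.16 without old replicate 2. Ccn3, a CCN family gene, was at 1256 ± 631 CPM in young and 188 ± 78.1 CPM in old (SD, n = 3 each), with a log2 difference of -2.74 (adjusted p = 0.0638 from edgeR). Spp1, which encodes osteopontin, was at 182 ± 37.6 CPM in young and 93.1 ± 21.5 CPM in old (SD, n = 3 each), with a log2 difference of -0.97 (adjusted p = 0.0948 from edgeR).

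Of 23 receptors and cell surface partners, DESeq2 called Sirpa and Tlr4 as higher and Itga3, Itga4 and Itga8 as lower, and the list median was -0.27. Itga8, the α subunit of a tenascin-C receptor, was at 445 ± 83.0 CPM in young and 129 ± 43.3 CPM in old (SD, n = 3 each). Its log2 fold change was -1.78 (adjusted p = 0.0557 from edgeR), of the same sign as that of Tnc. The other subunits of the tenascin-C receptors named above were nearer to no change and were not called by DESeq2. They were Itgb1 at -0.85, Itgb3 at -0.48, Itgav at -0.29 and Itga9 at -0.10. For Itgb1 the DESeq2 adjusted p was 0.0502. Each old library was below each young library for Itgb1 and Itgav, as for 14.7% of all genes, while Itgb3 and Itga9 overlapped. Sirpa, which encodes the counter-receptor of CD47, was at 35.5 ± 10.5 CPM in young and 99.7 ± 23.1 CPM in old (SD, n = 3 each), a log2 difference of 1.49 (adjusted p = 0.0667 from edgeR). Tlr4, a pattern recognition receptor activated by tenascin-C, had a log2 fold change of 1.14 (adjusted p = 0.0767 from edgeR). Leaving out old replicate 3 gave 0.87 for Tlr4, and the DESeq2 value of 0.86 was then under the fold limit. Cd47, chosen after its values were seen as the receptor of thrombospondin-1, was at 136 ± 21.7 CPM in young and 196 ± 21.9 CPM in old (SD, n = 3 each), a log2 difference of 0.53 (adjusted p = 0.134 from edgeR). Cd36 and Ptprz1 had no row in the table.

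Matrix partners lay mostly on the higher side, with 12 of 14 higher in old, compared with 52.0% of all genes, and a median of 0.65. DESeq2 called Col3a1, Col14a1 and Dcn as higher and 0 as lower. Col14a1, a fibril-associated collagen, had a log2 fold change of 2.43 (adjusted p = 0.0743 from edgeR) and Col3a1, a fibrillar collagen, of 1.31 (adjusted p = 0.111 from edgeR). Dcn, which encodes the proteoglycan decorin, had 19.9, 1.16 and 2.28 CPM in young and 26.0, 411 and 119 CPM in old, and a log2 difference of 4.58 with a standard error of 1.46 (adjusted p = 0.156 from edgeR). DESeq2 no longer called Dcn without young replicate 2 (adjusted p = 0.0652), young replicate 3 (adjusted p = 0.103), old replicate 2 (adjusted p = 0.202) or old replicate 3 (adjusted p = 0.0573). The edgeR value of Dcn was 3.23 without old replicate 2 and 6.76 without young replicate 1. Dcn also stands in the list of fibroblast markers, of which 8 of 8 in the table were higher in old, though only 3 had separate groups.

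In the TGF-β pathway, 9 of 14 genes were lower, with a median of -0.18, and DESeq2 called 2 as higher (Tgfbr2 and Tgfbr3) and 3 as lower (Tgfb2, Tgfb3 and Ltbp4). The ligand gene Tgfb2 was at 305 ± 206 CPM in young and 55.0 ± 14.0 CPM in old (SD, n = 3 each), a log2 difference of -2.47 (adjusted p = 0.0948 from edgeR), which was -1.85 without young replicate 3. The receptor gene Tgfbr2 was at 216 ± 29.9 CPM in young and 493 ± 111 CPM in old (SD, n = 3 each), a log2 difference of 1.19 (adjusted p = 0.0600 from edgeR). Without old replicate 3 Tgfbr2 was just under the fold limit in DESeq2, at 0.99, and was not called. Ltbp4, which encodes a latent TGF-β binding protein, had a log2 fold change of -1.82 (adjusted p = 0.0658 from edgeR). Of 12 proteases 9 were higher, with a median of 0.55. DESeq2 called Mmp2, Mmp14 and Adamts5 as higher and Mmp3 as lower. The call of Mmp3 was just under the limit (adjusted p = 0.0497 from DESeq2 and 0.167 from edgeR). Mmp2, which encodes gelatinase A, was at 1156 ± 331 CPM in young and 3523 ± 1474 CPM in old (SD, n = 3 each), a log2 difference of 1.61 (adjusted p = 0.108 from edgeR). The aggrecanase gene Adamts5 had a log2 fold change of 2.31 (adjusted p = 0.123 from edgeR), and Ctsk, which encodes cathepsin K, of 0.81 (adjusted p = 0.0763 from edgeR).

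**Figure D4:**
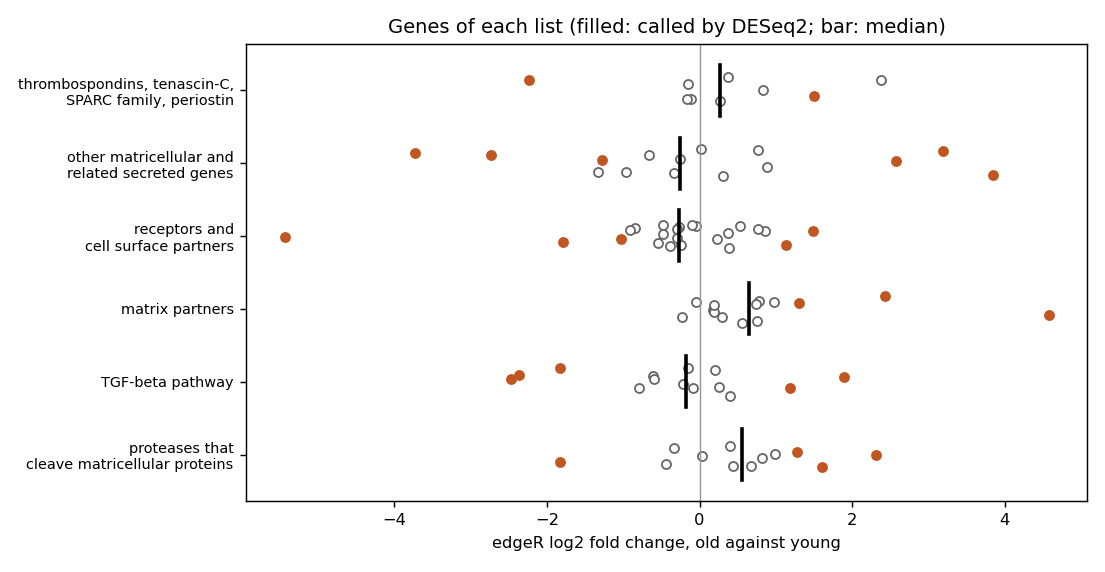
edgeR log2 fold change of old against young VSM cells for each gene of the 9 and of the 5 lists, with filled points for genes called by DESeq2 and a black bar at the median of each list. The medians run from -0.27 for receptors to 0.65 for matrix partners, and each list has filled points on both sides of 0 except the matrix partners.

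For the gene of each family with the highest mean CPM, a choice that takes no account of transcript length, the 4 genes with the most similar profile were taken by Pearson's r of log2(CPM + 0.5) over the 6 libraries, among 11435 other genes with a symbol and a mean of at least 1 CPM. This is a description over points that share libraries and depth. Tnc was most like Lnpk (r = 0.998), Myo10 (r = 0.997), Pop4 (r = 0.996) and Raly (r = 0.996), and 286 genes had an r above 0.95. Myo10, which encodes a myosin of filopodia, had a log2 fold change of -0.89, smaller in size than that of Tnc. Sparc was most like Arrdc3 (r = 0.996), Kctd20 (r = 0.995), Fbxw4 (r = 0.994) and Fbxo31 (r = 0.992), and 154 genes were above 0.95. Thbs1 was most like Fmo5 (r = 0.995), Dad1 (r = 0.993), Mrpl49 (r = 0.989) and Gprc5a (r = 0.989), with 85 genes above 0.95. The profile of Thbs1 was nearly flat, spanning 1.21 times over the 6 libraries. Fmo5 was close to the 1 CPM limit, with a mean log2(CPM + 0.5) of 0.84. Postn was most like the mitochondrial gene ND2 (r = 0.998), Mfhas1 (r = 0.993), Mterf3 (r = 0.982) and Wrn (r = 0.979), and with 24 genes above 0.95 its profile had the fewest neighbors of the 4.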

How the data were processed

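The authors deposited raw gene counts, whole numbers per gene and library with no normalization. Per the study's methods, reads were trimmed with Cutadapt 3.5 through Trim Galore 0.6.7, aligned with STAR 2.7.10b to the rat assembly Rnor 6.0 and counted with featureCounts of Subread 2.0.8 on a RefSeq annotation, although the table carries Ensembl identifiers. How strand, mates and multiple alignments were handled is not given in the sources used here. Genes that overlap others or have close copies are therefore uncertain. In the table, 3 or more libraries held 10 or more counts for every gene, so genes under that limit are absent. Of counts from 1 to 19, 68.7% to 71.1% were even, for which halved counts were tried, and the cause was not tested. Total counts also exceed the reads per sample that the labels state.

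All 14475 genes were fitted with edgeR 4.0.16 under R 4.3.3 (TMM normalization, model of age with young as reference, Benjamini-Hochberg adjustment). The standard error is the size of the log2 fold change over the root of its F statistic. Alternatives were the DESeq2 1.42.0 Wald test, which left 292 genes without an adjusted p, limma-voom from limma 3.58.1, other filters, size factors, library size only, a replicate block, halved counts, other thresholds and each library left out. DESeq2 with libraries left out was added after seeing the data. The scripts were tested on simulated data. Promoter sequences were searched on both strands. Genes named by rule were the members and, in each list, the 3 genes with the smallest p and any called. The 4 most similar profiles, Acta2 and Myh11 were also named by rule. List genes called by DESeq2, Tnn, Tgfbi and Cd47 were named after their values were seen. Other tenascin-C receptor subunits, and single marker genes given beside the summed levels, were not named by rule either. Tnxb was not analysed here. Members and lists were chosen with earlier results of these data known. Myh11, a smooth muscle myosin, was at 1131 ± 501 CPM in young and 134 ± 82.4 CPM in old (SD, n = 3 each). No column was left unused.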

Additional observations from a re-analysis of the deposited data

How the results depend on the processing

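Of the 9 genes, 7 kept the sign of their log2 fold change under each of 20 alternatives, and Sparcl1 and Postn, neither of them called, did not. Sparcl1 (with all libraries, -0.15) was 0.36 in limma-voom and 0.24 with the replicate block, and with 1 library left out it ran from -2.05 to 2.44 in edgeR. Leaving out young replicate 3 gave 2.44 (2.46 in DESeq2), leaving out old replicate 1 gave 0.25 (0.24) and leaving out old replicate 2 gave 0.33 (0.33). Postn (with all libraries, -0.17) ran from -0.65 to 0.42 in edgeR with 1 library left out. It was 0.42 in both tools without young replicate 3, and 0.075 in edgeR and 0.073 in DESeq2 without old replicate 2. Sparcl1 did not pass a filter of 1 CPM in 3 libraries. The number of the 9 genes called was 0 in edgeR, 1 (Tnc) at an adjusted p under 0.1, 2 in DESeq2, 0 to 1 in edgeR and 1 to 2 in DESeq2 with each library left out. For the 78 list genes it was 0 in edgeR, 23 in DESeq2, 0 to 11 in edgeR and 16 to 26 in DESeq2 with each library left out (17 without young replicate 2, 18 without young replicate 3 and 18 without old replicate 2). Over all genes edgeR called 1, 65 with a filter of 1 CPM in 3 libraries, which left 12233 genes, and 0 to 732 with each library left out. DESeq2 called 805, and 551 to 1377 with each library left out (737 without young replicate 1, 600 without young replicate 3, 614 without old replicate 2 and 651 without old replicate 3), and limma-voom called 0. The highest edgeR counts came without old replicate 1, and the cause was not tested. The number of the 9 genes with separate groups was 3, against 29.2% of all genes. With each library left out it was 3 to 5. A smaller group separates more easily, and the share of all genes was not taken there, so this range describes no trait of the 9. Samples of the 2 groups share replicate numbers. The labels do not say what libraries of a number have in common, so the numbers were not taken as pairs. Deviations from the group means correlated at 0.06, 0.31 and 0.29 for numbers 1, 2 and 3. Young replicates 2 and 3 correlated best with their own number, and young replicate 1 with old replicate 2 (0.34). With the replicate block edgeR called 1 gene overall and 0 of the 9. The block lowered the standard error of Postn from 0.50 to 0.16, of Sparcl1 from 1.41 to 0.54 and of Comp from 0.55 to 0.27. It also lowered that of Thbs2 and Tnc, and raised that of Thbs1, Thbs3, Thbs4 and Sparc. Whether the numbers are pairs was not settled. With halved counts the standard error was 0.55 for Comp, as with all counts, and 1.38 for Sparcl1, against 1.41.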
